A study of Mus musculus with 8 samples.

Results

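The 39 genes described here carry the interferon response: 12 signalling genes (receptors, receptor kinases and transcription factors) and 27 genes that interferon induces (sensors of viral RNA, antiviral effectors, regulators, peptide transporters and guanylate-binding proteins). They were taken by name from a list that was chosen with earlier results of these data known. Of the 39, 37 are among the 21883 protein-coding genes of the mouse annotation used, and Mx1 and Mx2 are annotated there as transcribed pseudogenes. The measurement was trimethylation of histone H3 at the lysine that the methyltransferase Setd2 modifies (H3K36me3), read out by ChIP-seq, the sequencing of DNA pulled down with an antibody to the mark, in bone marrow stromal cells, the adherent cells grown out of marrow. The KO cells carried floxed Setd2 alleles and received a lentivirus for Cre, a recombinase that removes floxed DNA. The WT cells carried the same floxed alleles and received a lentivirus for GFP. Both came from C57BL/6J mice, were at passage 2, had 4 days of selection with 2 µg/ml puromycin and were then cross-linked for 10 min in 1% formaldehyde. No untreated cells without virus were analysed here, so both groups share the virus and the antibiotic.

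Each genotype had 2 H3K36me3 libraries, called replicate 1 and 2, with 1 Input library (chromatin without antibody) and 1 IgG library (a non-specific antibody). The authors called peaks in each H3K36me3 library against the Input and, separately, against the IgG library of its genotype. The value given for a gene is its coverage, the percent of its annotated span (GRCm38, RefSeq) that lies under peaks, and the lists against Input are meant unless IgG is named. Whether replicates were separate cultures is not given in the labels. The p-values then measure no more than the spread between these libraries, and that spread may be technical. Read depth is unknown, since the lists hold no read counts. A gene at 0% held no called peak, which sets no upper limit on its signal.

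Interferons are secreted proteins that warn cells of a virus. Type I interferons bind the receptor made of Ifnar1 and Ifnar2, and interferon gamma binds Ifngr1 and Ifngr2. The attached kinases Jak1 and Tyk2 then phosphorylate Stat proteins, and a complex with Stat2 and Irf9 switches on genes that carry an interferon-stimulated response element in their promoters. H3K36me3 is laid down behind RNA polymerase II as it transcribes, so it marks the bodies of transcribed genes and is low at their starts.

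The promoters of interferon-induced genes carry a known element, and its core was looked for in the members. The window read was 250 bases before to 50 bases after each RefSeq start (GRCm38.p6), and the core searched was GAAANNGAAA on both strands, where N is any base. Its copies can overlap. The core was present in 10 of 24 windows of the induced genes, in 2 of 14 windows of the signalling genes (Irf2 and Stat2) and in 713 of 21262 windows of all protein-coding genes (3.35%). Another sequence searched, TTCNNNGAA, did not set the classes apart. It was present in 6 of 24 induced, 4 of 14 signalling and 1636 of 21262 of all windows (7.69%). The windows cover the 32 members that have an entry in the promoter table, each of several starts counted once. The 4 windows printed are those of an RNA-binding antiviral protein (Ifit1), a ubiquitin-like modifier (Isg15), an antiviral enzyme (Rsad2) and a guanylate-binding protein (Gbp2). They are given from 5′ to 3′ on the strand of the gene, with every copy of the core, read on either strand, in capitals.
Ifit1, chr19:34640639-34640938, plus strand: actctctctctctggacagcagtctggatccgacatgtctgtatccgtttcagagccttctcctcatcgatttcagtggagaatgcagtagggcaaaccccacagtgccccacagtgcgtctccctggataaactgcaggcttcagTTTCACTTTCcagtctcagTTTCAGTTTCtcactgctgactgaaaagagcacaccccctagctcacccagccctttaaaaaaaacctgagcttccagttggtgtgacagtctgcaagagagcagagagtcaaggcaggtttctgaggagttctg
Isg15, chr4:156200769-156201068, minus strand: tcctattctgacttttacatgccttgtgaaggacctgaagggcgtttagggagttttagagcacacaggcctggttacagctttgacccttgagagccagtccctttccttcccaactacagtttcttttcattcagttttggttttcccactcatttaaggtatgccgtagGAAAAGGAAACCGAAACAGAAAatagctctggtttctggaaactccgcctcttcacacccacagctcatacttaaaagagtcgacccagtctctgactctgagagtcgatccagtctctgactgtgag
Rsad2, chr12:26456403-26456702, minus strand: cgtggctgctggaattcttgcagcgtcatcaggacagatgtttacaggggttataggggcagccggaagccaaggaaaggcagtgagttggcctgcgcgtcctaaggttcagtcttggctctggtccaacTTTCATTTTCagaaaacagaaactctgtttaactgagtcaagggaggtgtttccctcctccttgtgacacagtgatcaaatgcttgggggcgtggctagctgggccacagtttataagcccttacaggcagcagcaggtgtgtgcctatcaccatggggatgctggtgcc
Gbp2, chr3:142620413-142620712, plus strand: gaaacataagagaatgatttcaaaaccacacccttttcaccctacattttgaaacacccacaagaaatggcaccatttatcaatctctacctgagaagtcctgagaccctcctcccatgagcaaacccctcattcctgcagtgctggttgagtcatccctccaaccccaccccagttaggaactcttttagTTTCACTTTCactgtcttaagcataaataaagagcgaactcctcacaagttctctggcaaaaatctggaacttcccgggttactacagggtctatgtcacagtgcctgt

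Ifit1 held 2 copies of the core, the nearer beginning 85 bases before the start. Isg15 held 3 overlapping copies, the nearest beginning 66 bases before the start. Rsad2 and Gbp2 held 1 each, 120 and 59 bases before the start. These matches describe letters in the window and not binding. None of these 4 windows touched a peak in any KO or WT library. Of the 38 windows of members, 0 lay under peaks in both WT libraries, beside 1.79% of the windows of all protein-coding genes. A peak reached a window only for Oasl1, over 27.3% of it in KO replicate 2, and for 1 of the starts of Irf9, over 100% of it in WT replicate 1.

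The peaks covered 71.7 and 94.4 Mb in the KO lists and 243 and 235 Mb in the WT lists. Setd2 itself was covered over 0.690% and 1.70% of its span in KO and over 66.4% and 60.5% in WT. A histone mark over Setd2 does not show whether its exons are present, so this is no check of the deletion. The labelled cell type was set against marker lists. The 12 stromal markers averaged 2.46% and 2.15% coverage in KO and 40.9% and 38.2% in WT. Of the stromal markers, Col1a1 had 3.45% and 0% in KO and 73.3% and 64.3% in WT, and Thy1 had 0% in all 4 libraries. The 12 haematopoietic markers averaged 2.32% and 6.56% in KO and 23.9% and 31.0% in WT, with Cd3e at 0% in both WT libraries. Lyz2, a lysozyme of myeloid cells, had 0% and 11.4% in KO and 74.9% and 87.6% in WT. Against IgG, both Col1a1 and Lyz2 were at 0% in the WT libraries. The 6 endothelial markers averaged 4.78% and 6.30% in KO and 3.78% and 1.71% in WT. Coverage passed the test as lower in KO for 9 of 9 stromal and 7 of 8 haematopoietic markers tested, beside 92.6% of all genes tested. Myeloid cells use interferon genes too, and their part in the values below was not tested. In such bulk samples, fewer cells that carry the mark and less mark per cell cannot be told apart.

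In WT cells most of the 39 genes lay largely under H3K36me3 peaks, and in KO cells almost none of that coverage was left. Mean coverage over the 39 genes was 2.07% and 1.81% in the KO libraries and 69.9% and 68.8% in the WT libraries. Over all protein-coding genes it was 2.92% and 3.72% in KO and 26.3% and 25.5% in WT. The signalling genes averaged 1.43% ± 0.612 in KO and 68.0% ± 1.76 in WT (SD, n = 2 libraries each). The induced genes averaged 2.17% ± 0.00471 in KO and 70.01% ± 0.319 in WT (SD, n = 2 each). These means lay close together, but Isg15 and Ifit2 were low in WT, and other summaries did not all rank the classes alike. The median over genes of the WT mean was 67.6% for signalling and 75.0% for induced genes, and a WT mean over 70% was reached by 5 of 12 signalling and 20 of 27 induced genes. By bases, 61.3% and 60.3% of the signalling spans and 76.0% and 73.9% of the induced spans were covered in WT. Jak1 (113309 bp) and Irf2 (107714 bp) made up much of the 387 kb of signalling spans. The other way round, 91.7% of signalling and 81.5% of induced genes were covered to at least 50% in both WT libraries. No test between the classes was made.

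At least 50% of the span was covered in both WT libraries for 33 of the 39 genes, among them 11 of 12 signalling and 22 of 27 induced genes. Of all protein-coding genes, 22.3% reached that level. The median over members of the WT mean was 73.2%, and it was 14.1% over all protein-coding genes and 29.0% over those of 5 to 120 kb. The same was seen within classes of gene length. Of members of 5 to 15 kb, 13 of 13 were covered to at least 50% in both WT libraries, beside 29.0% of all genes of that length. In the class of 15 to 30 kb the figures were 11 of 13 members and 35.4% of genes, and in that of 30 to 120 kb they were 8 of 10 members and 26.2% of genes. Only 3 members, Irf7, Bst2 and Isg15, were shorter than 5 kb, and only Irf7 of them reached that level, beside 6.85% of all genes of that length.

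**Figure D1:**
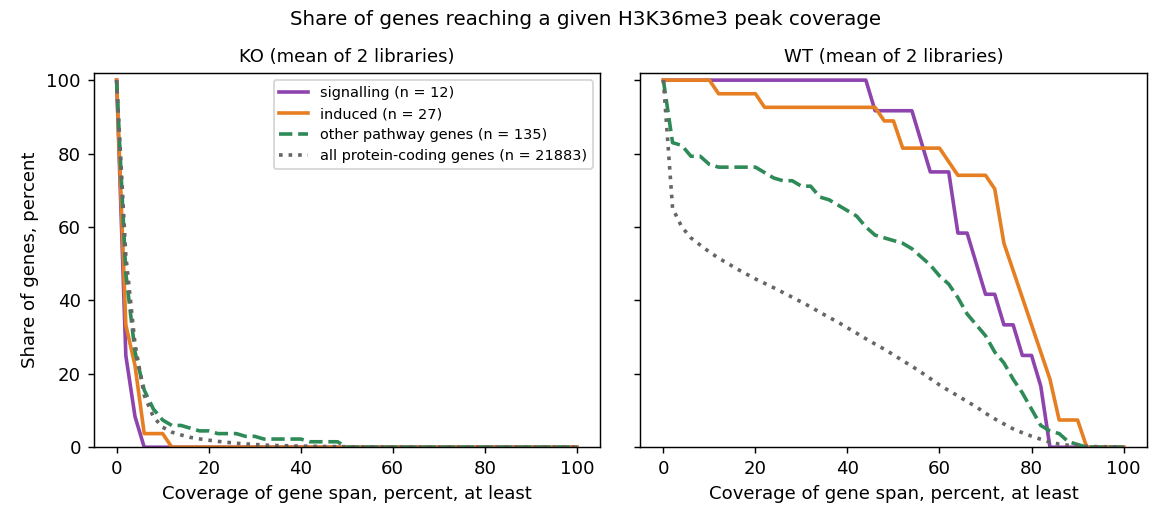
Share of genes (y axis, percent) whose coverage by H3K36me3 peaks reaches at least the value on the x axis (percent of gene span), as the mean of 2 KO libraries (left) and of 2 WT libraries (right). Purple is the 12 signalling genes, orange the 27 induced genes, green the 135 other genes of the interferon pathway and grey all 21883 protein-coding genes; in KO the curves drop together near 0, and in WT both member classes run to the right of the others up to about 80% coverage.

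In the KO libraries 14 of the 39 genes held no peak at all, 5 signalling and 9 induced genes. Of all protein-coding genes 33.1% held none, and of those covered to at least 50% in both WT libraries 24.6% held none. Coverage was under 10% in both KO libraries for 37 of the 39, beside 89.3% of all protein-coding genes and 89.1% of those well covered in WT. The exceptions were Ifit3 and Mx2. Both KO libraries lay below both WT libraries in 38 of the 39 genes, beside 54.3% of all protein-coding genes and 94.8% of those tested. The exception was Isg15, which had no peak in WT replicate 1. In none of the 39 did both KO libraries lie above both WT libraries, beside 10.4% of all protein-coding genes.

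Coverage was tested KO against WT with limma over the 10806 protein-coding genes that averaged at least 10% over the 4 libraries, with Benjamini-Hochberg adjustment over all of them and a threshold of 0.05. Lower coverage in KO was called in 10010 of these genes (92.6%) and higher coverage in 60 (0.555%). Of the 39 members 36 entered the test, and all 36 were called lower in KO, 12 signalling and 24 induced genes. Isg15 stayed below the filter, and Mx1 and Mx2 were outside the fit as pseudogenes. A gene well covered in WT passed the filter through its WT values, so a count so near the background of 92.6% says nothing particular of these genes. The median change was -72.6 points of span for the 36 members and -47.7 points for all tested genes. The adjusted p of the members ran from 0.000211 to 0.00487.

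**Figure D2:**
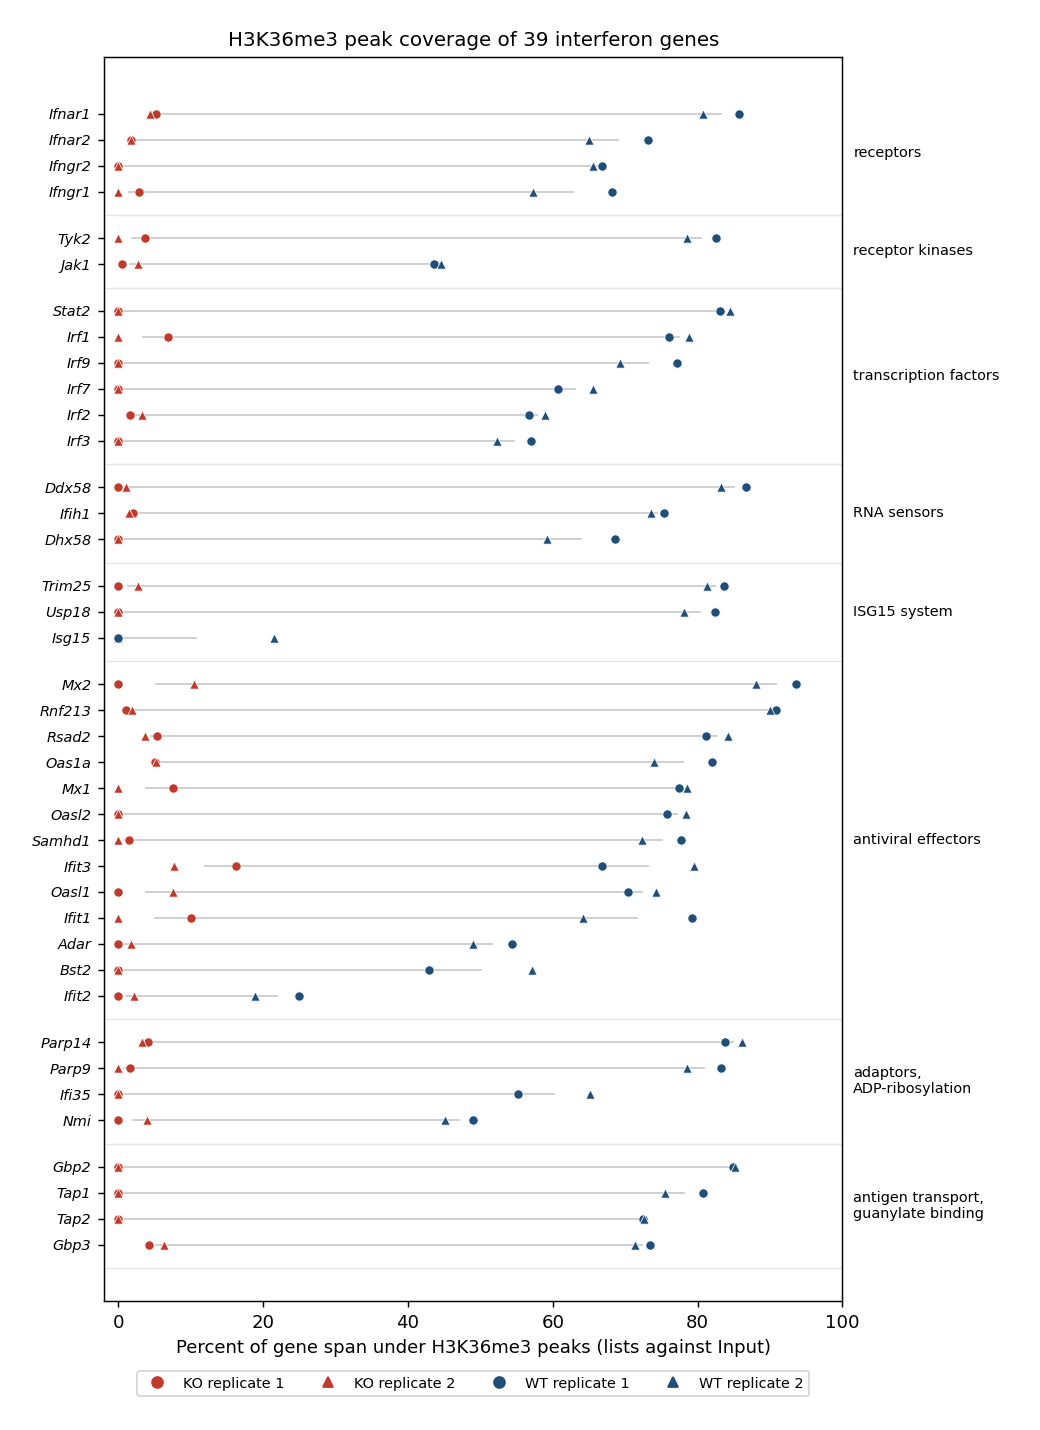
Percent of each gene's span under H3K36me3 peaks (x axis) for the 39 genes (rows), grouped by role, with KO libraries in red, WT libraries in blue, replicate 1 as circles and replicate 2 as triangles. A grey line joins the genotype means; the KO points lie at or near 0 in every row, with Ifit3 highest at 16.3%, and the WT points lie above 40% except in Ifit2 and Isg15.

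The receptors were read first. Ifnar1, a chain of the type I receptor, was covered over 5.17% and 4.31% of its span in KO libraries, against 85.7% and 80.8% in WT libraries. Its partner Ifnar2 was covered over 1.76% in each KO library, against 73.1% and 64.9% in WT libraries. Both KO values lay far below both WT values in each gene, and Ifnar1 was higher in WT than 98.4% of protein-coding genes. Ifngr1, the chain that binds interferon gamma, had 2.77% and 0% in KO libraries and 68.1% and 57.3% in WT libraries. Ifngr2, the second chain of that receptor, had 0% in both KO libraries and 66.8% and 65.5% in WT libraries. Coverage fell in all 4 receptor genes, by 61.3 points (SE 4.59) in Ifngr1 to 78.5 points (SE 2.61) in Ifnar1, with a limma adjusted p of 0.000657 and 0.000211 for these.

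Ifnar2, Ifnar1 and Ifngr2 lie with Il10rb, a chain of the interleukin 10 and interferon lambda receptors, in a cluster at chr16:91372783-91564007 (GRCm38). Over these 191.2 kb the KO lists held 13 and 11 peaks that covered 3.88% and 3.59%, and the WT lists held 51 and 51 peaks that covered 40.6% and 37.8%. The widest peak in the cluster was 780 and 1229 bp in KO and 8509 and 6148 bp in WT. In WT the covered bases followed the genes. Il10rb had 6.32% and 2.84% in KO and 72.6% and 71.1% in WT. The 59.2 kb between Il10rb and Ifnar1 were covered over 5.32% and 3.84% in KO and 9.27% and 6.76% in WT. The 36.5 kb between Ifnar1 and Ifngr2 were covered over 3.08% and 6.47% in KO and 2.04% and 3.37% in WT. In this last gap the KO and WT values overlapped, whereas in each of the 4 receptor genes they lay far apart.

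**Figure D3:**
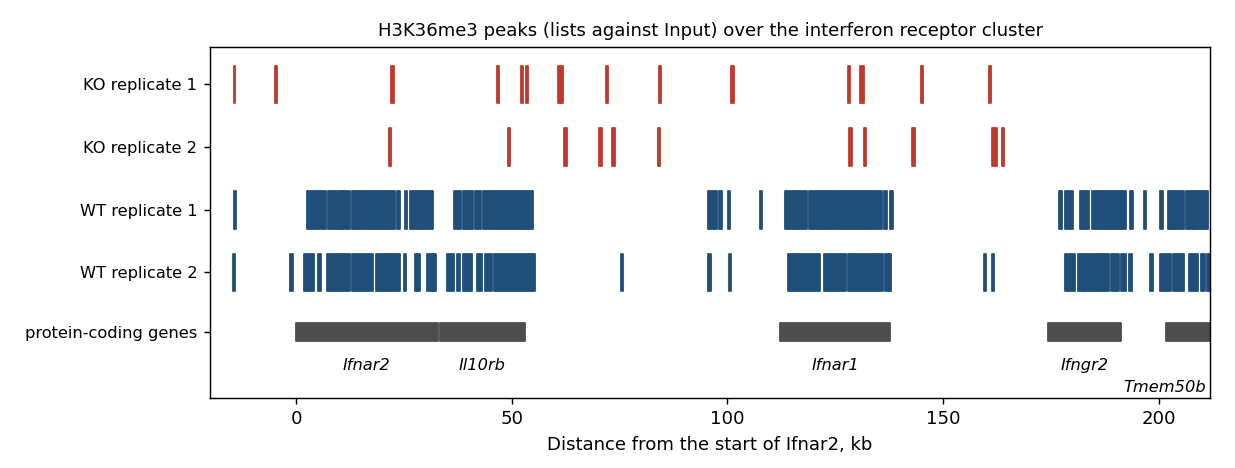
H3K36me3 peaks (bars) in each of the 2 KO libraries (red) and 2 WT libraries (blue) along the receptor cluster, with protein-coding genes in grey and distance from the start of Ifnar2 in kb on the x axis. The WT peaks fill Ifnar2, Il10rb, Ifnar1 and Ifngr2 and leave most of the space between them bare, and the narrow KO peaks, 13 and 11 in number between the start of Ifnar2 and the end of Ifngr2, are scattered over genes and gaps.

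The kinases differed in their WT level. Tyk2, which is bound to Ifnar1, had 3.73% and 0% in KO libraries and 82.6% and 78.5% in WT libraries. Jak1, which serves both receptors, had 0.455% and 2.63% in KO libraries and 43.6% and 44.5% in WT libraries, the lowest WT level of the 12 signalling genes. In neither kinase did the KO and WT values come near each other. Coverage fell by 78.7 points (SE 2.76) in Tyk2 and by 42.5 points (SE 2.06) in Jak1. In Jak1 the uncovered bases lay in the front of the gene: cut into 4 equal parts from its start to its end, the gene had a WT mean of 19.8%, 14.9%, 50.8% and 90.8%, while the KO mean was at most 2.69% in any part.

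Among the transcription factors Stat2 had the highest WT level. It had 0% in both KO libraries and 83.1% and 84.5% in WT libraries, above 98.6% of protein-coding genes in WT, and it fell by 83.8 points (SE 1.90; limma adjusted p 0.000211). Peaks carry no strand, so where annotated genes overlap they cannot be told apart. The span of Stat2 shares 3.37% with Apof. The largest overlaps with other annotated genes, mostly not protein-coding, were in Ifit1 (100% of span), Usp18 (62.9%), Dhx58 (28.2%), Rnf213 (27.0%), Gbp3 (21.3%), Ifnar2 (19.9%) and Parp9 (18.8%). Irf9, the partner of Stat2 on DNA, had 0% in both KO libraries and 77.1% and 69.3% in WT libraries. Irf1, an activator that interferon gamma induces, had 6.81% and 0% in KO libraries and 76.1% and 78.7% in WT libraries. Irf2, which competes with Irf1 for its sites, had 1.61% and 3.22% in KO libraries and 56.8% and 59.0% in WT libraries. These 4 genes are alike in that their WT libraries lay close together and far above both KO libraries.

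Irf3 and Irf7 act upstream, where sensors of viral nucleic acid activate them to switch on the interferon genes themselves. Irf3 had 0% in both KO libraries and 57.01% and 52.3% in WT libraries, through 1 peak of 2965 bp in WT replicate 1 and 1 of 2721 bp in WT replicate 2. Irf7 had 0% in both KO libraries and 60.7% and 65.5% in WT libraries. Of the 6 factors, 4 held no peak in either KO library, and coverage fell in all 6, by 54.7 points (SE 2.60) in Irf3 to 83.8 points in Stat2.

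The RNA sensors head the induced genes, since interferon raises the proteins that detect the virus. Ddx58, which encodes RIG-I, had 0% and 0.996% in KO libraries and 86.7% and 83.3% in WT libraries. Ifih1, which encodes MDA5, had 1.95% and 1.40% in KO libraries and 75.4% and 73.5% in WT libraries. Both sensors lay near 0 in KO and over most of their span in WT, with no overlap. Dhx58, whose product LGP2 tunes the other sensors, had 0% in both KO libraries and 68.7% and 59.1% in WT libraries. Coverage fell in the 3 sensors by 63.9 points (SE 4.03) in Dhx58 to 84.5 points (SE 2.26) in Ddx58.

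The system around Isg15 split into long covered genes and a short one that was nearly bare. Usp18, a protease that removes Isg15 from proteins and also restrains the type I receptor, had 0% in both KO libraries and 82.5% and 78.1% in WT libraries. Trim25, a ubiquitin ligase linked to the activation of RIG-I, had 0% and 2.64% in KO libraries and 83.6% and 81.2% in WT libraries. Both genes were covered alike in WT and fell by 80.3 points (SE 2.45) and 81.1 points (SE 2.26). Isg15 itself, at chr4:156199424-156200818, is 1395 bp long and had 0% in both KO libraries and 0% and 21.4% in WT libraries. Its only WT coverage came from a peak of 1013 bp in replicate 2 that overlapped the end of the gene, and in replicate 1 a peak of 528 bp lay just past the end. KO and WT overlapped at 0%, and Isg15 did not enter the main test, because its mean coverage was below the filter.

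The Ifit genes, whose products bind viral RNA, stand side by side on chromosome 19 and differed from each other. Ifit2 had 0% and 2.19% in KO libraries and 24.9% and 18.8% in WT libraries, the lowest WT level of the tested members. Ifit3 had 16.3% and 7.71% in KO libraries and 66.8% and 79.5% in WT libraries, the highest KO level of all 39 genes. Ifit1 had 9.99% and 0% in KO libraries and 79.2% and 64.2% in WT libraries. In all 3 the KO values stayed below the WT values, but the SD of the WT libraries was 10.6 points in Ifit1 and 8.97 points in Ifit3, which among the members Isg15 exceeds with 15.2 points and Bst2 nearly equals with 10.1 points. The change was -20.8 points (SE 3.14) in Ifit2, -61.17 points (SE 6.001) in Ifit3 and -66.7 points (SE 6.997) in Ifit1, with limma adjusted p of 0.00487, 0.00137 and 0.00165. None of these 3 calls held in every setting. Without WT replicate 1 the adjusted p was 0.0528 for Ifit2, 0.0541 for Ifit3 and 0.0711 for Ifit1, and without WT replicate 2 it was 0.0655 for Ifit3 and 0.0566 for Ifit1. The span of Ifit1 lies wholly inside the annotated span of Ifit1bl1, so its peaks belong to both, and copies of the family similar in sequence can share reads.

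The oligoadenylate synthetase family makes or resembles makers of the small messenger that activates RNase L. Oas1a had 5.00% and 5.24% in KO libraries and 82.1% and 74.0% in WT libraries. Oasl1 had 0% and 7.47% in KO libraries and 70.4% and 74.3% in WT libraries, and Oasl2 had 0% in both KO libraries and 75.8% and 78.4% in WT libraries. The 3 genes were covered to a like degree in WT, with KO far below. Coverage fell by 68.6 points (SE 3.66) in Oasl1 to 77.1 points (SE 2.10) in Oasl2. Similar copies of this family stand in the same region, so reads may have been divided among them.

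Mx1 and Mx2 encode GTPases that block viruses, and in many laboratory strains both are defective. Mx1 had 7.56% and 0% in KO libraries and 77.5% and 78.5% in WT libraries. Mx2 had 0% and 10.5% in KO libraries and 93.6% and 88.0% in WT libraries, the highest WT mean of the 39 genes. Both were well covered in WT and lay far lower in KO, with no overlap. When all annotated genes were fitted, a choice made after the data had been seen, the limma adjusted p was 0.00161 for Mx1 and 0.00252 for Mx2. In that fit all 38 members tested were lower in KO, beside 72.9% of all genes tested, with 1.19% of them higher. The members passed the filter through their WT values. The fit also took in genes that are not protein-coding, 16452 genes in all, so this difference says nothing particular of the members.

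Rnf213, a giant ubiquitin ligase with antiviral activity, had 1.09% and 1.83% in KO libraries and 90.8% and 90.05% in WT libraries. It held the widest WT peak of any member in each library, 13449 and 23089 bp. Rsad2, the antiviral enzyme viperin, had 5.38% and 3.68% in KO libraries and 81.1% and 84.1% in WT libraries. The KO values of both genes were small, and in WT most of each gene was covered. Samhd1, which breaks down nucleotides that viruses need, had 1.48% and 0% in KO libraries and 77.8% and 72.3% in WT libraries. Bst2, the membrane tether of budding virus, had 0% in both KO libraries and 42.9% and 57.2% in WT libraries, in WT peaks of at most 731 bp. Coverage fell by 89.0 points (SE 1.92) in Rnf213, 78.1 points (SE 2.23) in Rsad2, 74.3 points (SE 2.83) in Samhd1 and 50.0 points (SE 5.68) in Bst2.

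Adar, which edits double-stranded RNA, had 0% and 1.66% in KO libraries and 54.4% and 48.9% in WT libraries. Its 3 annotated starts spread over 15696 bp. Between the first and the last start, 0% and 4.13% was covered in KO and 12.3% and 4.32% in WT. From the last start to the end of the gene, 0% was covered in both KO libraries and 84.7% and 80.9% in WT. In WT the mark thus lay behind the last start, and the part before it was nearly bare. Coverage of the whole span fell by 50.8 points (SE 2.85).

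Nmi and Ifi35 encode proteins that bind each other, and Parp9 and Parp14 encode proteins of ADP-ribosylation. Nmi had 0% and 3.91% in KO libraries and 48.9% and 45.0% in WT libraries. Ifi35 had 0% in both KO libraries and 55.2% and 65.1% in WT libraries. Their WT levels were below those of the ADP-ribosylation genes. Parp14 had 4.05% and 3.18% in KO libraries and 83.8% and 86.1% in WT libraries, and Parp9 had 1.53% and 0% in KO libraries and 83.2% and 78.6% in WT libraries. Coverage fell in all 4, by 45.0 points (SE 2.79) in Nmi to 81.3 points (SE 2.06) in Parp14.

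Tap1 and Tap2 form the transporter that feeds viral peptides to class I molecules, and they are neighbours on chromosome 17. Tap1 had 0% in both KO libraries and 80.8% and 75.4% in WT libraries, and Tap2 had 0% in both KO libraries and 72.4% and 72.6% in WT libraries. The guanylate-binding proteins Gbp2 and Gbp3 attack vacuoles that hold pathogens. Gbp2 had 0% in both KO libraries and 84.8% and 85.1% in WT libraries. Gbp3 had 4.17% and 6.24% in KO libraries and 73.4% and 71.3% in WT libraries, and with Mx2 and Ifit3 it was among the 3 members with the highest KO mean. Of these 4 genes 3 thus held no KO peak, and in WT all 4 were covered evenly in the libraries. Coverage fell by 67.2 points (SE 2.16) in Gbp3 to 85.0 points (SE 1.83) in Gbp2.

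Along the genes the WT peaks left the start free and filled the rest. The direction of the gene was known for 32 members. With each gene cut into 4 equal parts from start to end, the median WT coverage of the parts was 24.5%, 83.1%, 92.9% and 89.3%, and the last part was above the first in 32 of 32. In the first of 20 equal bins of the span the members averaged 0% in both KO libraries and 4.09% and 0.735% in WT. All protein-coding genes with a known direction averaged 1.53% and 1.96% there in KO and 3.72% and 3.63% in WT. In the last 5 of the bins the members averaged 2.79% and 1.41% in KO and 87.6% and 84.4% in WT. In the kilobase past the gene end, the members still averaged 2.56% and 0.9% in KO and 69.3% and 71.9% in WT.

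Among the 26 of these members covered to at least 50% in both WT libraries, the median distance between the start and the first covered base was 2090 and 1848 bp in WT. For the 4021 protein-coding genes chosen the same way it was 2266 and 2284 bp. The last base of the gene was under a peak in 18 and 20 of the 26 members, beside 72.6% and 70.03% of those genes. The members poorest in WT coverage were filled from the back as well. Ifit2 had WT means of 4.50%, 12.7%, 20.7% and 49.6% in its 4 parts, and Nmi had 12.3%, 26.2%, 68.0% and 81.4%.

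**Figure D4:**
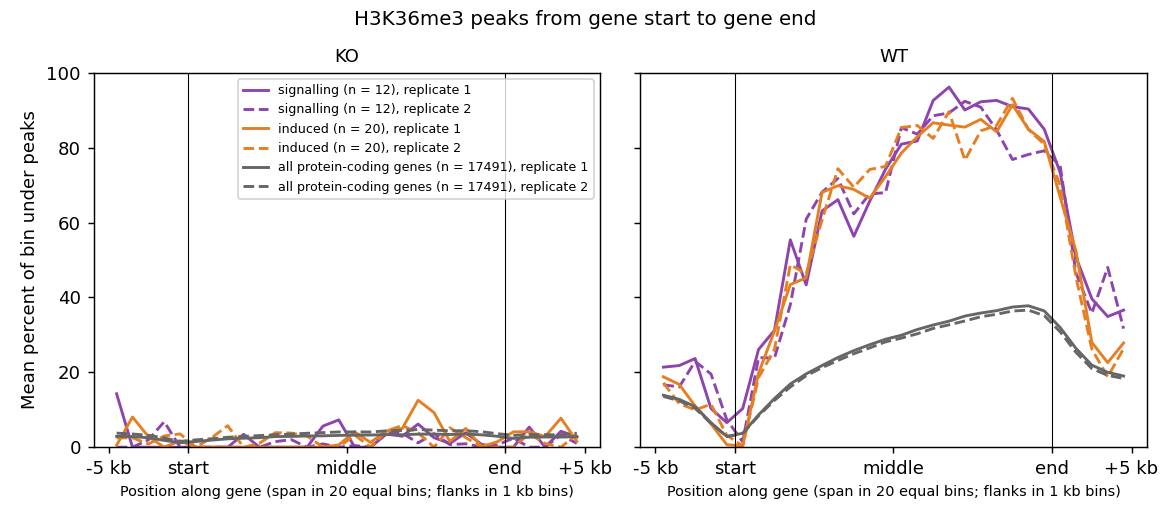
Mean percent of each bin under H3K36me3 peaks (y axis) along genes, in 20 equal bins of the span with 5 kb flanks in 1 kb bins (x axis), for KO (left) and WT (right); solid lines are replicate 1 and dashed lines replicate 2. Signalling (purple) and induced genes (orange) rise behind the start in WT to highest bins between 91.4% and 96.2% and drop past the end, above all protein-coding genes (grey), whereas in KO the highest bin inside the genes is 12.5%.

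The peaks that remained in KO were few and narrow. The 39 spans, 1006 kb in all, were touched by 27 and 38 peaks in KO and by 396 and 413 in WT. Their median width was 557 and 569 bp in KO and 1186 and 1172 bp in WT. No KO peak in a member was wider than 2 kb, and the widest had 954 and 823 bp, whereas 29.5% and 27.8% of the WT peaks in members were wider than 2 kb. Among all peaks, 0.0742% and 0.0690% in KO and 8.61% and 7.57% in WT were that wide. The authors' score of the peaks in members had a median of 42.9 and 32.3 in KO, beside list medians of 44.3 and 35.2. In WT it was 77.9 and 85.1, beside list medians of 35.7 and 36.7. Peaks in members thus ranked near the middle of each KO list and above the middle of each WT list.

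The KO peaks of the replicates rarely met. Of the bases of members covered in either KO library, 2.39% were covered in both, and of those covered in either WT library, 76.7% were covered in both. Over all protein-coding genes these shares were 5.11% in KO and 49.2% in WT. KO bases common to both libraries were found in 4 members, over 452 bp in Ifit3, 209 bp in Ifnar1, 171 bp in Parp14 and 32 bp in Ifnar2. All of these stretches lay under WT peaks, in full except for 71.3% of the Ifnar1 stretch in WT replicate 2. By bases, 1.58% and 2.09% of the members' spans was covered in KO and 70.3% and 68.7% in WT. In the space between annotated genes, 2.52% and 3.32% was covered in KO and 1.98% and 1.98% in WT. The coverage left in members in each KO library was thus below that of its space between genes.

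The lists called against IgG gave lower WT levels. Mean coverage of the 39 genes against IgG was 1.10% and 1.23% in KO and 62.7% and 62.0% in WT. The WT mean of a gene was lower against IgG than against Input in 31 of the 39, equal in 7 and higher in 1 (Oasl1). The differences were widest in Oasl2, Ifi35 and Trim25. Oasl2 had 0% in both KO libraries and 19.9% and 73.1% in WT against IgG, and Ifi35 had 0% in both KO libraries and 20.01% and 44.0% in WT. Trim25 had 0% in both KO libraries and 63.7% and 59.8% in WT against IgG. In Oasl2 the shortfall lay in WT replicate 1, and in Ifi35 both WT libraries were lower than against Input. Of 35 members tested against IgG, 34 were called lower in KO, beside 91.4% of all genes tested, and none was higher, beside 0.218%. Oasl2 did not pass, with a limma adjusted p of 0.108, and Ifit2 and Isg15 were below the filter.

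**Figure D5:**
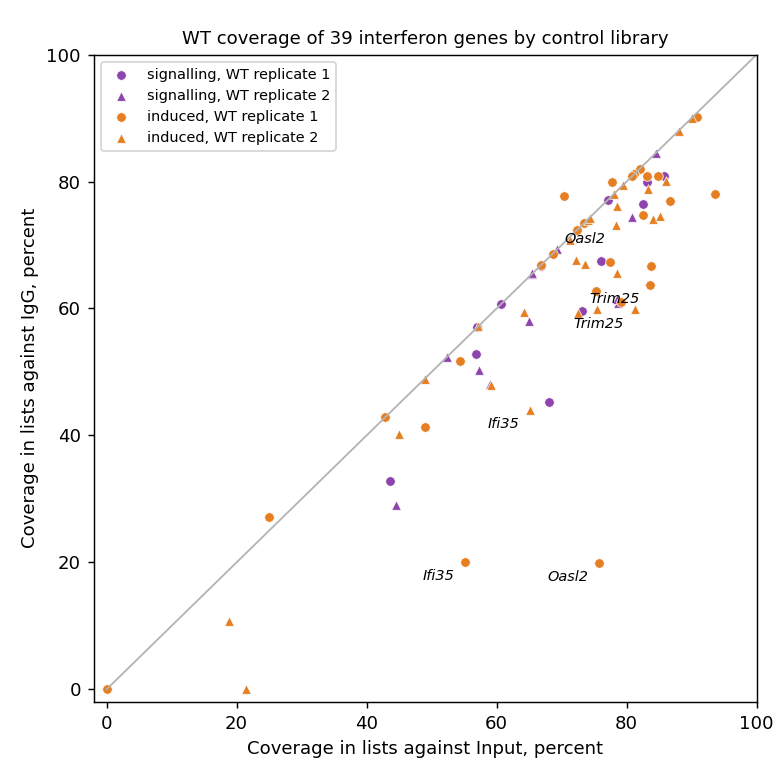
Coverage of the 39 genes in the WT libraries, in percent of gene span, from peak lists against Input (x axis) and against IgG (y axis), with signalling genes in purple, induced genes in orange, replicate 1 as circles and replicate 2 as triangles. The grey line marks equal values; most points lie on or below it, farthest for Oasl2 and Ifi35 in replicate 1, at 19.9% and 20.01% against IgG.

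Each library was also scaled to its mean coverage over all protein-coding genes. This moved the median change of all tested genes to -16.7 points, against -47.7 points unscaled. The KO lists covered 2.74% and 3.58% of the bases of protein-coding genes and 2.52% and 3.32% of the space between annotated genes. KO coverage of genes thus lay near that between genes, so scaling does not set aside an equal proportional loss of the mark. After scaling, 29 of the 36 members were called lower, 11 signalling and 18 induced genes, beside 45.2% of all tested genes, and none was higher, beside 2.42%. Members and all tested genes were not matched for WT coverage, so these shares do not show a loss particular to these genes. The 7 members that did not pass were Irf1, Ifit1, Ifit2, Ifit3, Oasl1, Rsad2 and Nmi. Of these, Ifit3 turned to a positive change of 14.5 points with a limma adjusted p of 0.641. Scaling multiplies the few KO peaks of a gene. Each of these 7 genes had a peak in at least 1 KO library. Members that stayed lower had KO peaks too, such as Irf2, Ifnar1, Ifih1, Parp14 and Gbp3, each with peaks in both KO libraries. Why these 7 did not pass was not tested.

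Of the 135 other genes of the interferon pathway listed beside the members, 108 were tested, 99 were called lower in KO and none higher, at the adjusted or the unadjusted threshold. This share too lay near the background of 92.6%. Against IgG, 84 of 100 tested were lower, below the background of 91.4% there, and none was higher. The genes of upstream sensing were lower in 16 of 16 tested. Among them were Tbk1, the kinase of Irf3, with 6.97% and 5.24% in KO and 89.95% and 88.7% in WT, and its relative Ikbke, with 2.11% and 0% in KO and 76.2% and 85.1% in WT. Mavs, the mitochondrial adaptor of the RNA sensors, had 0% in both KO libraries and 75.6% and 82.0% in WT. All 3 were under 10% in both KO libraries and mostly covered in WT. In KO, Tbk1 lay above the means of all protein-coding genes, 2.92% and 3.72%.

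Other signalling genes were lower in 9 of 9 tested. Ep300, an acetyltransferase and coactivator, had 0.770% and 1.61% in KO and 75.2% and 72.0% in WT. Negative regulators were lower in 13 of 13 tested, and Socs1, the inhibitor of Jak kinases, held no peak in any library. Pias4, a SUMO ligase, had 0% and 4.27% in KO and 83.5% and 88.4% in WT. Against IgG, Pias4 had 0% in both KO libraries and 22.6% and 88.4% in WT, and did not pass (limma adjusted p 0.116). Tnfaip3, the ubiquitin-editing enzyme A20, had 0% in both KO libraries and 68.5% and 61.4% in WT. Ptpn11, a phosphatase, had 1.11% and 5.36% in KO and 67.7% and 62.5% in WT. Groups did not overlap in any of these named genes except Socs1.

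Other induced genes were lower in 61 of 62 tested. Among these tested genes the falls were largest in Helz2, a helicase coactivator, with 2.77% and 0% in KO and 83.9% and 89.4% in WT, Eif2ak2, the kinase PKR, with 3.38% and 3.602% in KO and 86.8% and 88.1% in WT, and Tor3a, with 0% in both KO libraries and 85.1% and 77.9% in WT. The gene that did not pass was Cxcl10, a chemokine, with 0% in both KO libraries and 44.0% and 0% in WT. Peaks thus lay over its short span in 1 WT library alone, and against IgG Cxcl10 had 0% in every library.

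The genes of the interferons themselves were mostly without peaks. The 21 ligand genes averaged 14.01% and 8.42% coverage in KO and 3.11% and 5.17% in WT, with a median of 0% in every library. Of the 8 tested, none passed limma at the adjusted or the unadjusted threshold. Each had peaks in 1 library of a genotype: Ifnb1 had 61.0% in KO replicate 1, Ifna11 99.5% and Ifna13 55.9% in the same library, and Ifna2 80.3% and Ifna7 96.5% in KO replicate 2, all with 0% in the other KO library and in both WT libraries. Against IgG, Ifna11, Ifna2 and Ifna7 were at 0% in all libraries, and the ligand genes averaged 7.62% and 0% in KO and 3.26% and 5.17% in WT. In the lists against Input, Ifna12 had 0% in both KO libraries and 65.4% and 0% in WT, and Ifne had 0% in both KO libraries and 0% and 87.0% in WT. Ifnk had 31.4% and 0% in KO and 0% and 21.6% in WT. The ligand genes are short, with a median of 0.664 kb, so that a single peak can cover most of one, and KO and WT overlapped in all 8.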

How the data were processed

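H3K36me3 ChIP-seq of 2 KO and 2 WT libraries was analysed, grouped and numbered by sample title. The submitters' processing notes name Bowtie2 as the aligner and GRCm38 as the build. Of peak lists, the authors deposited 8, 1 per library and control (Input or IgG of the same genotype, per the labels), so replicates share control libraries. Peak names start with MACS. Its version and settings: not given in the sources used here. Peak scores deposited by the authors have no stated scale and served to describe and filter peaks inside 1 list. Read counts are not in the lists, so depth is unknown, although depth would change how many peaks are called and how wide they are.

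Coverage is the percent of a RefSeq gene span (GRCm38.p6) under peaks, in 21883 protein-coding genes. KO was compared with WT in R 4.3.3 by limma 3.58.1 (eBayes with its trend and robust settings, statmod 1.5.0) on percent values, for genes averaging at least 10% over the 4 libraries, with p-values adjusted after Benjamini and Hochberg and called at 0.05. The step was tested on simulated coverage in which both genotypes had the spread of the WT libraries, which need not hold for the sparse KO peaks. Other values came from Python 3.11.15, numpy 2.4.6 and pandas 2.3.3, and figures from matplotlib 3.10.9. Of the 135 other pathway genes, 2 were matched by an older symbol.

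Alternatives were IgG lists, peaks at or above the median score, peaks within 1 kb merged, spans extended by 2 kb, a filter of 25% or none, scaling to mean coverage, no trend or robust option, a replicate block and leaving out each library; a fit of all annotated genes was added after the data had been seen. The numbers of the replicates were not taken to pair the libraries, since nothing in the labels ties them and the correlation of same-numbered deviations was -0.00324 over 10806 genes.

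The members, gene lists and tests were chosen with earlier results of these data known. By rule, values per library are given for the 3 members with the highest and the 3 with the lowest WT coverage in each class, the 3 with the highest KO coverage, the 3 that differ most between Input and IgG lists in WT, every member that loses its call in an alternative, and up to 3 other pathway genes per role; values of the other members were added to describe their groups. Values of 1 marker gene and 1 other pathway gene are not reported here.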

Additional observations from a re-analysis of the deposited data

How the results depend on the processing

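Of the member calls, the Ifit genes, Irf1, Oasl1, Oasl2, Rsad2 and Nmi depended on a setting. Scaling to mean coverage gave an adjusted p of 0.209 for Irf1, 0.570 for Ifit1, 0.185 for Ifit2, 0.170 for Oasl1, 0.0539 for Rsad2 and 0.0911 for Nmi, turned Ifit3 to 14.5 points (adjusted p 0.641), lowered the calls to 4889 of 10806 genes and to 58 of 108 other pathway genes, and moved the mean change of the signalling genes to -31.7 points, against -66.6, and of the induced genes to -29.8 points, against -67.8. The mean change of the signalling and the induced genes was -60.8 and -61.4 points against IgG, -60.7 and -64.9 with peaks at or above the median score, -75.4 and -74.2 with peaks within 1 kb merged, and -60.7 and -61.3 with spans extended by 2 kb. A filter of 25% left 5962 genes to test, of which 5881 were lower, and with no filter 10698 of 18284 were. Leaving out each library in turn gave 8462 to 9231 lower genes, 33 to 36 members, 12 to 12 signalling and 21 to 24 induced members and 85 to 94 other pathway genes, mean changes of -67.8 to -65.3 points for signalling and -68.1 to -67.6 points for induced genes, and 38 to 39 of 39 members without overlap. Where a group is left with 1 library, that library is assumed to vary like the other group. Without KO replicate 1 or 2, 2 and 3 other pathway genes were called higher. The replicate block gave 9990 lower genes, 36 members and 99 other pathway genes, and changed no call of a member. Depth, which the lists do not give, limits what can be said of genes without a peak.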
